A study of Coprinopsis cinerea AmutBmut pab1-1 with 201 samples.

Results

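The genes described here are those of the mushroom Coprinopsis cinerea whose counted transcript codes for 100 amino acids or fewer. They were found in the deposited annotation by a summed coding sequence of at most 300 bp, among gene models with an identifier number below 1000000. The rule used no expression value. It found 347 genes, 2.98% of the 11662 models with such a number and 2.55% of the 13617 genes in the deposited count table. The other 11315 models below that number, here called longer genes, served for comparison. A further 835 short models carry a newer numbering and were not members.

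RNA came from the strain AmutBmut pab1-1, whose mutated mating type factors let it fruit without a partner, and every group shares that genotype. Each of 67 groups had 3 libraries. The tested groups were oidia (asexual spores) after 18 h of germination, basidiospores (sexual spores) after 12 h, mycelium grown in the dark for 132 h, aerial mycelium, mycelium after 1 h of light, hyphal knots (the first aggregates of a fruiting body) taken 24 h after light, primordia after 24 h of a light and dark cycle, colonies starved on water agar for 24 h, and knots on 1% water agar. Their references were both spore types at 0 h, dark mycelium of 12 h, attached mycelium, aerial and attached mycelium kept dark for 156 h, attached mycelium 24 h after light, the knots, dark mycelium of 60 h, and water agar cultures 30 h before knots. The stresses were heat (47 °C for 2 h) and sclerotia (resting bodies of 4 weeks), both set against dark mycelium of 132 h, and cold (4 °C for 4 h), set against dark mycelium of 84 h. Liquid cultures with 1 mM hydrogen peroxide for 3 h or 10% sorbitol for 2 h shared a liquid control. Cobalt chloride (2 mM, on cultures of 7 days given 2 h of light and then 22 h of darkness) and a hypoxia bag (24 h) each had a control of their own, and copper sulfate (2 mM for 6 h) was set against a control shared with calcium and voriconazole cultures. Levels are also given for mycelium under the antifungal voriconazole (0.5 µg/ml, 48 h), frozen at -20 °C for 30 min, cut with a knife 3 h before, or overgrown by the fungus Trichoderma for 60 h, and for liquid cultures kept 3 h in 1% Congo red or in acidic or alkaline medium. Summaries over all 67 groups also include plates sealed for carbon dioxide treatment (28 °C, 6 days in the dark), drought, and calcium (200 mM, 24 h). They further include mycelium just meeting Trichoderma and other times of the courses named above. The heat and freezing cultures were 6 days old. The labels warn that some mycelium may adhere to the sclerotia. The labels do not say whether the 3 libraries of a group are from different cultures, and the p-values therefore reflect the spread among these libraries alone, which may be technical.

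Short proteins are a mixed class in fungi. They include small ribosomal proteins and small subunits of respiratory complexes, which most growing cells make in quantity, and small secreted proteins, peptide pheromone precursors, metal-binding proteins and stress-induced proteins, which are made in particular cells or conditions. The deposited files pair no identifier with a name or product, and 0 of the 13617 identifiers matched the reference table of gene names, so no member can be given one of these roles. No coding sequence was in the files used here.

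The libraries held between 213736 and 26101402 counts (median 9984538), and 9 held fewer than 5000000. The smallest belong to mycelium overgrown by Trichoderma, and cold library 1 held 1673596. Levels are in CPM, a gene's deposited counts divided by the library's total and multiplied by 1000000. Since the libraries take reads near the 3′ end, a level needs no correction for length, but a transcript whose end is wrongly placed in the annotation loses reads. In bulk samples, fewer cells of a type and less RNA per cell cannot be told apart.

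The members' coding sequences ran from 93 to 300 bp, with a median of 246 bp or 82 amino acids. Their transcripts had a median length of 482 bp, against 1569 bp for longer genes, and the coding part was 49.9% of the transcript, against 85.5%. The median member had 3 exons and the median longer gene had 5. Single-exon members numbered 44, or 12.7%, against 4.66% of longer genes. An annotated 3′ UTR was present in 87.0% of members and 92.4% of longer genes, with median lengths of 133 bp and 128 bp. Another gene overlapped 90 members on the opposite strand and 10 on the same strand, and in 33 members the counts were not whole in at least 50% of libraries with a count, as when a read is split among similar sites. Together 126 members had one of these features, and their counts are uncertain. Members lay on 15 scaffolds, with 40 on scaffold 1 and 36 on scaffold 3. The shares that overlapped on the opposite strand (25.9% and 27.0%) or had shared counts (9.51% and 8.92%) were close in members and longer genes. The members just inside the limit, with 300 bp, were CopciAB_101384.T0, CopciAB_139100.T0 and CopciAB_166371.T0, which averaged 68.9, 15.4 and 0.0756 CPM. Just outside it, with 303 bp, CopciAB_364026.T0, CopciAB_377876.T0 and CopciAB_429999.T0 averaged 0.142, 1.88 and 0.0664 CPM.

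Very short genes were spread over a wider range of levels than longer ones. Averaged over the 67 groups, members had a median of 11.9 CPM with quartiles of 1.22 and 75.7 CPM, and longer genes had a median of 17.4 CPM with quartiles of 4.34 and 46.8 CPM. Both ends were fuller: 77 members (22.2%) averaged 100 CPM or more, against 11.9% of longer genes, and 81 (23.3%) averaged less than 1 CPM, against 13.0%. Genes above 300 and up to 600 bp were spread almost as widely, with a median of 16.3 CPM and quartiles of 1.40 and 75.7 CPM. The width was therefore shared by short genes on both sides of the limit. These are descriptions of gene classes, with no test between them.

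**Figure D1:**
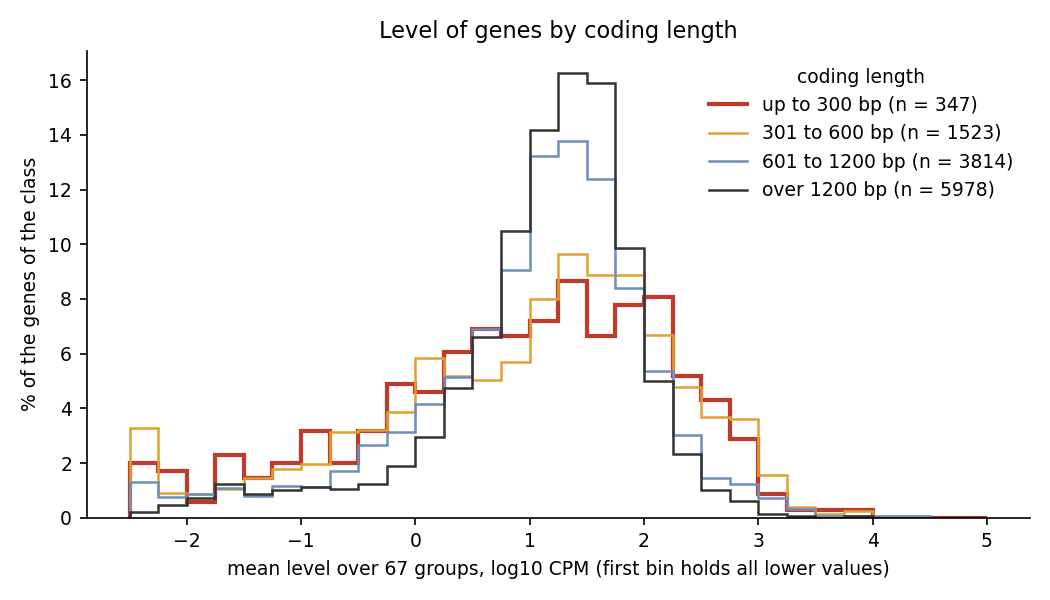
Share of genes by mean level over the 67 groups (x axis, log10 CPM) for 4 classes of coding length, with the very short genes in red (y axis, percent of the class). The 347 very short genes and the 1523 genes above 300 and up to 600 bp form a broad, low curve, while the genes over 1200 bp are concentrated around their median of 18.7 CPM.

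Where a member fell on this range went with the shape of its gene model. The 217 members with 3 or more exons had a median of 28.0 CPM and included 69 of the 77 abundant ones, the 86 with 2 exons a median of 8.28 CPM, and the 44 with a single exon a median of 0.262 CPM. Longer genes had the same order, with medians of 20.0, 8.94 and 2.17 CPM for 3 or more, 2 and 1 exons. All 77 abundant members had an annotated 3′ UTR. The 45 members without one had a median of 0.0598 CPM, and longer genes without one had a similar median of 0.0456 CPM. A model that lacks its 3′ end can lose reads in these libraries, and the part of this in both medians was not tested. Among members with 3 or more exons, 31.8% reached 100 CPM, against 12.8% of longer genes with as many exons. At least 1 CPM in at least 1 group was reached by 317 members (91.4%, against 95.5% of longer genes), and in all 67 groups by 158 (45.5%, against 56.9%).

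The members were also less evenly expressed across groups. Specificity was measured by tau, which is 0 for a gene at the same log level in every group and 1 for a gene seen in a single group. Its median was 0.465 in members and 0.345 in longer genes. At 1 to 100 CPM the medians were 0.471 and 0.345, and at 100 CPM or more they were 0.197 and 0.198. The gap was thus present at middle level and absent among abundant genes, while detected genes averaging under 1 CPM were not examined apart. In genes above 300 and up to 600 bp the median was 0.409, and 0.425 at 1 to 100 CPM, between the other two. A tau of 0.75 or more was found for 69 detected members (21.8%) and for 11.3% of longer genes.

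Abundant members fell into a few types by where they were highest. CopciAB_468195.T0, coding for 36 amino acids, led with a mean of 8847 CPM, followed by CopciAB_419076.T0, the shortest member with 31 amino acids, at 4094 CPM, and CopciAB_501712.T0, with 94 amino acids, at 2779 CPM. Both of the first had shared counts in 50.7% of libraries. The next 7 were CopciAB_398047.T0, CopciAB_438384.T0, CopciAB_438154.T0, CopciAB_385517.T0, CopciAB_419716.T0, CopciAB_443979.T0 and CopciAB_398594.T0, at 1392 to 891 CPM. Another gene overlaps CopciAB_438384.T0 and CopciAB_385517.T0 on the opposite strand, and the counts of CopciAB_438384.T0 were not whole in 75.6% of libraries. Of the 7, CopciAB_398047.T0, CopciAB_438384.T0, CopciAB_385517.T0 and CopciAB_398594.T0 were highest in basidiospores germinated for 12 h, then 8 h, then oidia germinated for 18 h. CopciAB_398594.T0, with 56 amino acids, measured 3780, 3816 and 4300 CPM in 12 h basidiospores and was lowest after heat shock, at 115, 121 and 109 CPM. CopciAB_398047.T0 had 4175, 4396 and 6503 CPM in the same spores and 176, 177 and 154 CPM after heat shock. CopciAB_419076.T0 varied little by comparison, with a tau of 0.0761 and a lowest level of 591, 572 and 565 CPM after heat shock.

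The most specific members belonged mainly to spores. Among members reaching 50 CPM in some group, CopciAB_541843.T0 had the highest tau, 0.922, with 3294, 3418 and 4038 CPM in ungerminated basidiospores and a median of 0.335 CPM over groups. CopciAB_382008.T0 followed with 555, 890 and 581 CPM in 12 h primordia, although its counts were shared in 53.7% of libraries. CopciAB_450365.T0, CopciAB_438890.T0, CopciAB_421367.T0, CopciAB_501439.T0 and CopciAB_439412.T0 were highest in basidiospores at 0 or 4 h. CopciAB_447085.T0 and CopciAB_359007.T0 were highest in ungerminated oidia, at 376 ± 86.3 and 66.1 ± 3.62 CPM (SD, n = 3 each). CopciAB_369245.T0, with 82 amino acids, was highest under voriconazole, with 268, 180 and 447 CPM, against 13.9 CPM in the next group, frozen mycelium. Another gene overlaps CopciAB_541843.T0, CopciAB_501439.T0 and CopciAB_369245.T0 on the opposite strand.

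Together the members took a median of 4.41% of a group's counts, and 2.18% without the members of uncertain counts. With the limit on coding length at 240 or 360 bp the share was 2.50% or 12.2%. Their share was highest in basidiospores, with 9.52%, 9.75% and 11.3% in the libraries at 0 h and 8.99% ± 1.07 (SD, n = 3) at 4 h. Heat shock had the lowest share, 1.90%, 1.93% and 1.92%, and apart from mycelium overgrown by Trichoderma no other library was below 2.87%. In the overgrown mycelium the share was 3.20%, 1.35% and 1.77%, in the shallowest libraries of the series, and the part of depth or of the other fungus in these values was not tested. Without the 5 members most abundant over all groups, the share was 9.47% ± 0.96 in basidiospores at 0 h. That value includes CopciAB_438154.T0, which alone took 4.12% ± 0.31 of the counts there, and the other members together took 6.07% ± 0.66 (SD, n = 3 each). Without the same 5, heat shock had 1.73% ± 0.02 and was not the lowest group. Mycelium overgrown by Trichoderma had 1.41% ± 0.51 and sclerotia 1.62% ± 0.23, while attached mycelium 18 h after light had 1.81% ± 0.02 (SD, n = 3 each). CopciAB_468195.T0, 1 of the 5, took 0.0208% of the counts after heat and 1.11% in dark mycelium of 132 h. Sclerotia, again without the 5, had 1.62% ± 0.23, against 2.61% ± 0.05 in dark mycelium of 132 h (SD, n = 3 each). The 3 libraries of sclerotia ranged from 1.39% to 1.86% and those of dark mycelium from 2.56% to 2.67%, with no overlap.

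**Figure D2:**
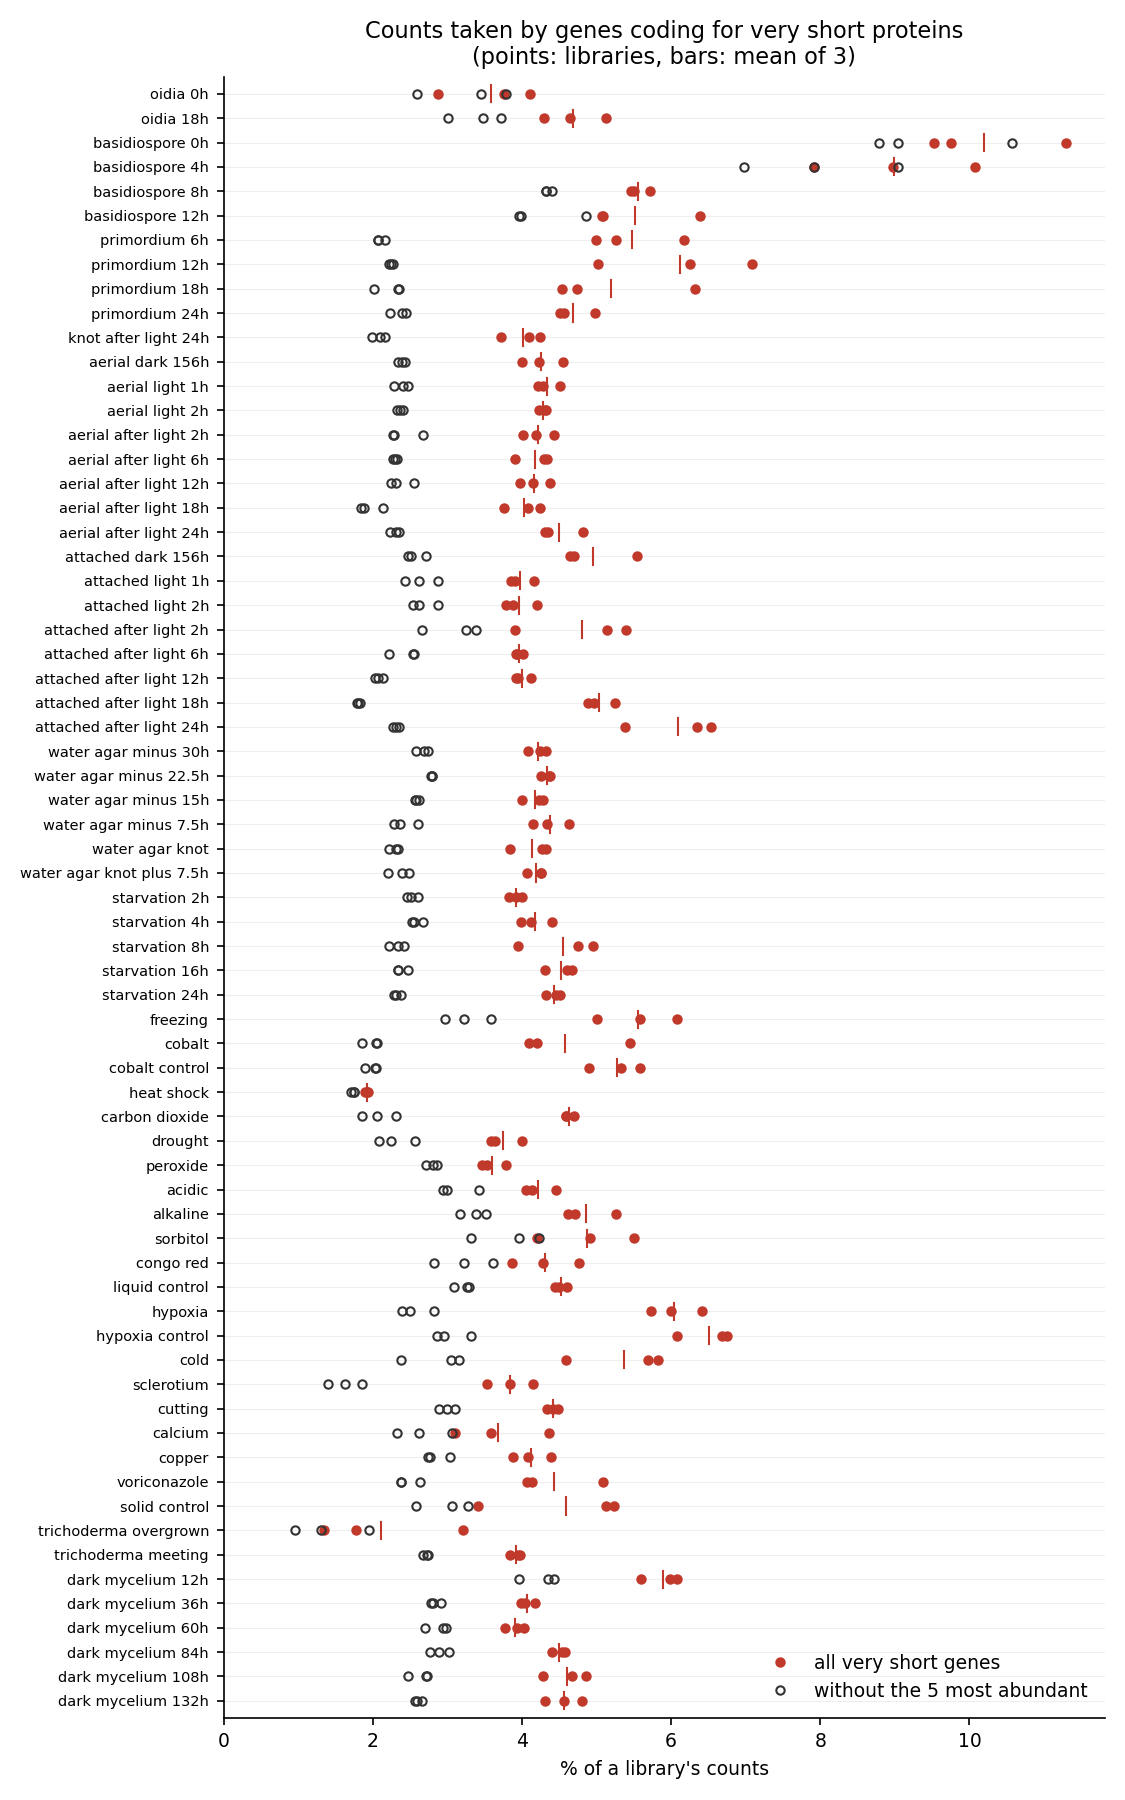
Percent of each library's counts (x axis) assigned to very short genes in the 67 groups (y axis), with 3 libraries a group. Filled points count all 347 members, with a bar at the mean of 3, and open points leave out the 5 most abundant, so the distance between them shows how much those 5 hold. The filled points of basidiospores at 0 and 4 h lie far to the right. Those of heat shock lie to the left, and libraries 2 and 3 of mycelium overgrown by Trichoderma lie farther left (1.35% and 1.77%).

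Spores held a large part of the highest levels of members and of longer genes. Ungerminated oidia were the highest group for 71 of the 317 detected members (22.4%, against 14.7% of longer genes), and they were the 1 group of 67 in which the median member (18.4 CPM) was above the median longer gene (16.0 CPM). A highest group needed a mean of only 1 CPM, so members of very low level are included. The libraries of ungerminated oidia held 3842222 to 6242146 counts, below the median of 9984538, and the part of depth was not tested. Basidiospores at 12 h were the highest group for 29 members (9.15%, against 5.20%), and dark mycelium of 12 h for 23 members (7.26%, against 1.43%). The share of members highest in a group was below that of longer genes in basidiospores at 0 h (5.99%, against 6.36%) and 4 h (6.31%, against 7.91%). The same held in basidiospores at 8 h (1.26%, against 3.70%) and oidia at 18 h (1.26%, against 3.14%). All 6 spore groups together held the highest level of 147 members (46.4%, against 41.0% of longer genes). For the lowest level, among the 158 members detected in every group, basidiospores at 0 h came first with 43 members (27.2%, against 27.4%). Sclerotia came next with 29 members (18.4%, against 3.57%), then heat shock with 25 members (15.8%, against 12.7%).

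The level of the most abundant member varied with dark growth, starvation and light. CopciAB_468195.T0 has 3 exons on scaffold 2 of the authors' assembly, from 2746689 to 2747356 on the minus strand. Its counts were not whole in 50.7% of libraries with a count and are therefore uncertain. Its end overlaps CopciAB_167247.T0, a longer gene on the plus strand from 2744497 to 2746714 with a mean of 16.6 CPM. In dark mycelium it averaged 968, 400, 985, 5708, 10272 and 11088 CPM at 12, 36, 60, 84, 108 and 132 h. Its log2 fold change at 132 h over 12 h was 3.81 ± 0.29 (SE), with an edgeR adjusted p of 3.03e-08. Dark mycelium of 60 h was also the control for starvation on water agar. After 2, 4, 8, 16 and 24 h of starvation, CopciAB_468195.T0 averaged 2399, 5192, 13223, 12608 and 11476 CPM. One hour of light lowered it in attached mycelium, to 3691, 1339 and 6072 CPM, against 14991, 13863 and 20704 CPM in the dark (log2 fold change -2.23 ± 0.37, edgeR adjusted p = 1.15e-05). In aerial mycelium the values after 1 h of light were 7074, 8853 and 12380 CPM, against 11133, 9181 and 13989 CPM in the dark (-0.36 ± 0.35, adjusted p = 0.490), and the ranges overlapped. The difference between the aerial and the attached response was not tested. By 24 h after light, attached mycelium reached 27058, 36302 and 37868 CPM, the highest of any group and 3.37% of its counts. Hyphal knots of that time had 13562, 13024 and 9208 CPM, lower than the attached mycelium by a log2 fold change of -1.69 ± 0.36 (adjusted p = 0.000394). After heat shock it fell to 179, 209 and 237 CPM, against 13004, 7900 and 12359 CPM in dark mycelium of 132 h (-5.27 ± 0.27, adjusted p = 1.07e-12), whereas sclerotia had 16111, 21294 and 17873 CPM (1.08 ± 0.23, adjusted p = 0.000417). Germinated spores had the lowest level, with 18.6, 20.8 and 14.8 CPM in basidiospores at 12 h. The members with the most similar pattern over the 67 group means were CopciAB_377468.T0, CopciAB_449513.T0 and CopciAB_541893.T0, with Spearman correlations of 0.75, 0.72 and 0.70, given as a description of groups that share control and time series.

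**Figure D3:**
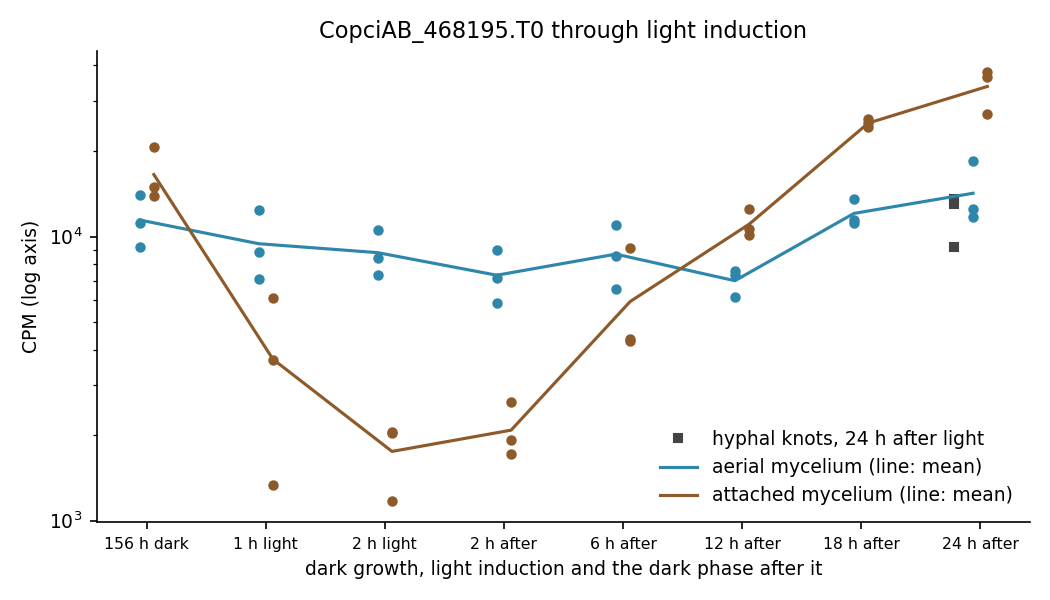
Level of CopciAB_468195.T0 in CPM (y axis, log scale) through dark growth, light induction and the dark phase after it (x axis). Points are libraries, lines join the means of 3, and squares are hyphal knots. Mean levels in attached mycelium are 16519 CPM in the dark, 1753 CPM at 2 h of light and 33742 CPM at 24 h after light, while those in aerial mycelium stay between 6990 and 14201 CPM.

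Germinating oidia had more falling than rising members. A gene was called when edgeR's quasi-likelihood test gave a Benjamini-Hochberg adjusted p under 0.05 over all genes tested and a fold of 2 or more. In oidia at 18 h over 0 h, 59 members rose and 96 fell of 268 that passed the filter on low counts, where 53% of all genes tested were called (26.7% higher and 26.3% lower). Members are named in order of fold among those with mostly whole counts and groups that did not overlap. CopciAB_450946.T0, coding for 68 amino acids, rose most, with 44.5, 8.70 and 34.6 CPM at 18 h and 0.160, 0 and 0.163 CPM at 0 h (log2 fold change 8.00 ± 1.21, edgeR adjusted p = 3.08e-05). CopciAB_487630.T0 had 111, 341 and 1530 CPM at 18 h, against 4.49, 5.47 and 3.74 CPM at 0 h (7.52 ± 1.09, adjusted p = 3.32e-05, and 5.96 without library 3 at 18 h). CopciAB_471993.T0 rose by 6.63 ± 1.11 (adjusted p = 6.93e-05, and 8.12 without library 1 at 0 h). CopciAB_501712.T0, one of the 3 most abundant members, had 6413, 6804 and 6321 CPM at 18 h, against 310, 176 and 232 CPM (5.06 ± 0.34, adjusted p = 3.97e-11). On the side of the resting oidia, CopciAB_499652.T0 had 0.553, 0.198 and 0.297 CPM at 18 h and 10.6, 20.3 and 16.4 CPM at 0 h (-5.17 ± 0.52, adjusted p = 2.05e-08). Members of lower level weighed more on this side: of 192 tested members below 100 CPM, 42.7% fell, against 24.9% of longer genes of that level.

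Basidiospores showed the largest changes of any member. At 12 h over 0 h, 103 members rose and 66 fell of 268 tested, with 65.1% of all genes called (35.4% higher and 29.7% lower). CopciAB_438890.T0, coding for 88 amino acids on scaffold 9 (1106011 to 1106594), had 1.22, 2.23 and 0.459 CPM at 12 h, against 2765, 2993 and 1360 CPM at 0 h (-11.44 ± 0.76, adjusted p = 3.52e-10, and -12.04 without library 2 at 12 h). CopciAB_541843.T0 fell by 11.17 ± 0.50 on the log2 scale (adjusted p = 9.72e-14), with another gene overlapping on the opposite strand. CopciAB_438154.T0, coding for 76 amino acids on scaffold 3 (1471423 to 1471883), was the largest single contributor to the spore share, with 38693, 40248 and 44642 CPM at 0 h and 135, 106 and 55.1 CPM at 12 h (-9.35 ± 0.38, adjusted p = 3.85e-14). Its group means passed through 23600 CPM at 4 h and 2356 CPM at 8 h. CopciAB_501439.T0 fell by 8.30 ± 0.51 (adjusted p = 1.21e-11). Among rising members, CopciAB_382303.T0 had 8.85, 7.02 and 25.4 CPM at 12 h, against 0, 0.0891 and 0.0137 CPM (8.10 ± 0.95, adjusted p = 1.58e-07, between 7.21 and 10.2 with 1 library left out). CopciAB_494883.T0, with 84 amino acids, had 192, 200.6 and 243 CPM, against 0.175, 0.891 and 0.660 CPM (7.85 ± 0.39, adjusted p = 2.00e-13). CopciAB_169320.T0 rose by 6.98 ± 0.37 (adjusted p = 4.73e-13). In both germinations the scaling moved all genes, as DESeq2's size factors in place of TMM gave a median of all genes of -0.12 (TMM 0.03) in oidia and 0.06 (TMM 0.21) in basidiospores on the log2 scale. The members' median was then -0.38 (TMM -0.22) in oidia and 0.35 (TMM 0.50) in basidiospores.

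In mycelium grown in the dark, more members fell than rose. At 132 h over 12 h, 27 members rose and 41 fell of 262 tested, or 26.0% called, with 17.6% of all genes called (10.6% higher and 7% lower), and 68.3% of the tested members had a negative fold change. Their median log2 fold change was -0.42, against 0.05 in longer genes. Without the 5 most abundant members, the members' share of counts was 4.25% ± 0.25 at 12 h, 2.83% ± 0.07 at 36 h and 2.61% ± 0.05 at 132 h (SD, n = 3 each). CopciAB_503585.T0, coding for 77 amino acids, went the other way, with 5.59, 6.03 and 4.08 CPM at 132 h, against 0.469, 0.218 and 0.184 CPM at 12 h (4.41 ± 0.37, edgeR adjusted p = 1.38e-08). CopciAB_501278.T0 had 55.8, 62.5 and 109 CPM at 132 h and 8.06, 13.4 and 6.52 CPM at 12 h (3.33 ± 0.50, adjusted p = 0.000113). Of the falling members, CopciAB_378349.T0 had 0.668, 0.365 and 1.72 CPM at 132 h and 8.44, 4.35 and 6.88 CPM at 12 h (-2.53 ± 0.50, adjusted p = 0.000362, and -3.34 without library 3 of 132 h). CopciAB_479565.T0, whose 3′ UTR of 583 bp is longer than its coding part, had 4.34, 4.11 and 3.17 CPM, against 25.5, 20.1 and 30.5 CPM (-2.42 ± 0.22, adjusted p = 2.85e-08).

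In the dark at 156 h, 17 members were higher and 44 lower in aerial over attached mycelium, of 290 tested, where 17.7% of all genes were called (7.42% higher and 10.2% lower). The median log2 fold change was -0.42 in members, against 0.02 in longer genes. CopciAB_516649.T0, with 89 amino acids, was highest on the aerial side, with 21.2, 20.2 and 15.3 CPM, against 0.912, 0.480 and 0.253 CPM in attached mycelium (4.98 ± 0.60, edgeR adjusted p = 6.38e-09). CopciAB_450946.T0 had 71.7, 120 and 69.2 CPM in aerial and 2.98, 3.36 and 1.94 CPM in attached mycelium (4.86 ± 0.85, adjusted p = 1.66e-05). The attached side was led by CopciAB_431999.T0, with 4.34, 3.53 and 21.0 CPM in aerial and 400, 317 and 668 CPM in attached mycelium (-5.70 ± 0.92, adjusted p = 4.66e-06, and -7.00 without aerial library 3). CopciAB_27198.T0 had 3.93, 6.10 and 4.70 CPM in aerial and 165, 175 and 202 CPM in attached mycelium (-5.31 ± 0.67, adjusted p = 3.64e-08), although another gene overlaps it on the opposite strand. CopciAB_479570.T0 fell by 5.28 ± 0.82 on the log2 scale and CopciAB_462682.T0 by 4.87 ± 0.81 (adjusted p = 1.73e-06 and 7.66e-06).

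One hour of light changed 36 members in aerial mycelium and 46 in attached mycelium, of 290 tested. In aerial mycelium 19 rose and 17 fell, with 13.6% of all genes called (6.85% higher and 6.77% lower). Without light library 2 or without dark library 1, 23 members were called there. In attached mycelium 10 rose and 36 fell, with 15.6% of all genes called (6.06% higher and 9.49% lower). CopciAB_450946.T0, the aerial member named above, dropped to 0, 1.29 and 0.253 CPM after light (-7.59 ± 1.04, edgeR adjusted p = 1.07e-06, between -9.50 and -6.93 when 1 light library was left out). CopciAB_461764.T0, with 87 amino acids, rose in both, to 956, 1081 and 690 CPM, against 99.4, 170 and 92.4 CPM, in aerial mycelium (2.82 ± 0.29, adjusted p = 7.21e-10) and to 498, 490 and 294 CPM, against 105, 129 and 84.1 CPM, in attached mycelium (1.88 ± 0.28, adjusted p = 1.67e-06). CopciAB_372317.T0 rose most in attached mycelium, with 21.7, 14.0 and 18.8 CPM, against 0.632, 1.5199 and 6.32 CPM (2.55 ± 0.63, adjusted p = 0.00190, and 3.95 without dark library 3). CopciAB_471254.T0 came next, with 17.1, 19.1 and 14.8 CPM, against 3.43, 4.00 and 4.13 CPM (2.01 ± 0.56, adjusted p = 0.00541). Of 77 members at 100 CPM or more, 4 rose (5.19%) and 13 fell (16.9%) in attached mycelium, with a median log2 fold change of 0.14. Of longer genes of that level, 5.87% rose and 12.9% fell, with a median of -0.14. Among the 36 members of any level that fell there, CopciAB_462682.T0 had 1.45, 1.00 and 0.539 CPM, against 29.7, 24.4 and 46.9 CPM (-5.17 ± 0.84, edgeR adjusted p = 1.13e-05). CopciAB_431999.T0 fell by 4.81 ± 0.88 (adjusted p = 6.16e-05), and CopciAB_475934.T0 by 4.10 ± 0.69 (adjusted p = 1.94e-05). These comparisons share the dark libraries with the one between aerial and attached mycelium.

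In hyphal knots over attached mycelium, both 24 h after light, 30 members were higher and 34 lower of 290 tested, with 17.4% of all genes called (9.03% higher and 8.33% lower). CopciAB_356423.T0, coding for 80 amino acids, had 14.4, 6.86 and 11.3 CPM in knots, against 0.844, 1.56 and 1.45 CPM (2.89 ± 0.52, edgeR adjusted p = 2.74e-05). CopciAB_446966.T0 had 24.0, 32.6 and 29.1 CPM, against 6.98, 3.50 and 4.99 CPM (2.28 ± 0.36, adjusted p = 3.35e-06). On the lower side, CopciAB_448302.T0 had 0.160, 0 and 0 CPM in knots and 10.0, 6.27 and 11.3 CPM in attached mycelium (-7.31 ± 1.31, adjusted p = 2.66e-05, and -9.85 without knot library 1). CopciAB_462682.T0 had 0.879, 1.16 and 1.06 CPM in knots, against 107, 92.1 and 59.1 CPM (-6.57 ± 0.86, adjusted p = 1.39e-07). The spore member CopciAB_438154.T0 had 0.958, 4.05 and 0.901 CPM in knots and 225.96, 128 and 59.9 CPM in attached mycelium (-6.36 ± 1.16, adjusted p = 4.98e-05, and -7.38 without knot library 2). CopciAB_479570.T0 fell by 6.23 ± 0.76 (adjusted p = 2.30e-08, and by 7.38 without knot library 1).

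Primordia of 24 h were set against hyphal knots, the same knot libraries as above. Over hyphal knots, 38 members rose and 58 fell of 290 tested, with 32.1% of all genes called (14.8% higher and 17.3% lower). CopciAB_207709.T0, with 77 amino acids, rose most, to 23.4, 17.7 and 17.1 CPM, against 2.40, 0.0826 and 0.164 CPM in knots (4.13 ± 1.00, edgeR adjusted p = 0.000962, between 3.54 and 6.76 with 1 knot library left out, and DESeq2 adjusted p = 0.0648). CopciAB_502046.T0 had 562, 683 and 1174 CPM in primordia and 147, 34.5 and 37.8 CPM in knots (3.16 ± 0.78, adjusted p = 0.000971, and 4.06 without knot library 1). Of those that fell, CopciAB_431999.T0 had 7.52, 5.18 and 6.14 CPM in primordia, against 31.7, 131 and 105 CPM (-4.15 ± 0.87, adjusted p = 0.000125). CopciAB_559272.T0 fell by 3.78 ± 0.84 (adjusted p = 0.000264) and CopciAB_427866.T0 by 3.74 ± 0.72 (adjusted p = 3.38e-05). CopciAB_443979.T0, one of the 10 most abundant members, had 171, 153 and 140 CPM in primordia and 1318, 1636 and 1442 CPM in knots (-3.57 ± 0.38, adjusted p = 1.85e-10).

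Starvation raised a few members from almost nothing. After 24 h on water agar over dark mycelium of 60 h, 37 members rose and 50 fell of 266 tested, or 32.7% called, with 25.6% of all genes called (14.9% higher and 10.7% lower). CopciAB_479570.T0, coding for 88 amino acids on scaffold 4 (348604 to 349220), had 99.1, 73.0 and 70.5 CPM in starved colonies, against 0.0869, 0 and 0.0900 CPM (10.17 ± 1.03, edgeR adjusted p = 2.39e-06). CopciAB_502046.T0, with 66 amino acids and another gene overlapping on the opposite strand, had 1062, 852 and 1345 CPM, against 3.65, 2.12 and 12.7 CPM (7.52 ± 0.82, adjusted p = 7.70e-06, and 8.64 without control library 3). CopciAB_451005.T0, which lies close to the first of them at 345094 to 345743, had 11.8, 15.6 and 10.6 CPM, against 0.0869, 0.0963 and 0.450 CPM (5.89 ± 0.69, adjusted p = 1.47e-06, and 7.01 without control library 3). On the other side, CopciAB_487630.T0 had 0.956, 3.18 and 1.04 CPM in starved colonies, against 7.21, 23.0 and 122 CPM (-4.76 ± 1.00, adjusted p = 0.00162, and -2.97 without control library 3, where its level was highest). With only the 2 groups in the fit its adjusted p was 0.0509.

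In knots formed on water agar over cultures 30 h earlier, 16 members rose and 9 fell of 262 tested, or 9.54% called, with 10.1% of all genes called (5.94% higher and 4.18% lower). CopciAB_50839.T0 had 32.0, 378 and 21.7 CPM in knots, against 4.41, 5.23 and 4.32 CPM (4.98 ± 1.18, edgeR adjusted p = 0.00843), but without knot library 2 the log2 fold change was 2.54, and with only the 2 groups in the fit the adjusted p was 0.0946. CopciAB_502046.T0 was steadier, with 252, 334 and 255 CPM in knots, against 16.2, 7.49 and 29.0 CPM (4.01 ± 0.67, adjusted p = 0.000880, and 4.61 without library 3 of the earlier cultures). CopciAB_463797.T0 had 11.1, 24.2 and 14.8 CPM in knots, against 51.5, 45.0 and 51.5 CPM (-1.55 ± 0.25, adjusted p = 0.000103).

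Heat shock changed most members that could be tested. Over dark mycelium of 132 h, 82 rose and 91 fell of 277, or 62.5%, with 55.9% of all genes called (27.5% higher and 28.4% lower). The median log2 fold change was -0.41 in members, -0.47 in genes above 300 and up to 600 bp, -0.34 in those up to 1200 bp and 0.04 above 1200 bp. With DESeq2's size factors in edgeR the median of all genes was 0.05 (TMM -0.05) and that of members -0.32. DESeq2 itself gave medians of 0.10 and -0.14, with 90 higher and 89 lower members. Of 77 tested at 100 CPM or more, 37 fell (48.1%) and 11 rose, while 41.7% of longer genes of that level fell. CopciAB_207709.T0 had 6.80, 10.8 and 6.41 CPM after heat and 0 counts in all 3 controls, at least 88.7-fold higher when 3 counts over the control group are taken as the floor. CopciAB_447761.T0, coding for 58 amino acids, had 28.8, 25.9 and 58.3 CPM, against 0.334, 0.365 and 0.0906 CPM (7.54 ± 0.65, edgeR adjusted p = 5.60e-08). CopciAB_447085.T0, a member of resting oidia, had 13.5, 16.2 and 17.8 CPM, against 0, 0 and 0.544 CPM (6.83 ± 0.62, adjusted p = 5.46e-09, between 6.22 and 10.63 with 1 control library left out). CopciAB_501439.T0, a basidiospore member, had 78.5, 93.1 and 84.6 CPM, against 1.08, 1.19 and 2.36 CPM (6.24 ± 0.42, adjusted p = 7.71e-10), with another gene overlapping on the opposite strand. Among those that fell, CopciAB_406489.T0, with 54 amino acids, had 0.647, 0.121 and 0.194 CPM after heat and 31.3, 32.0 and 15.1 CPM in controls (-5.86 ± 0.46, adjusted p = 4.77e-10, and -6.77 without heat library 1). CopciAB_471993.T0 fell by 4.93 ± 0.43 (adjusted p = 2.45e-09, and by 6.41 without heat library 2).

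Sclerotia had the largest median change of the members among the 18 comparisons. Over dark mycelium of 132 h, the same control as for heat, 48 members rose and 110 fell of 277 tested, or 57.0% called, with 40.8% of all genes called (19.3% higher and 21.5% lower). The share that fell was 39.7% in members and 21.5% over all genes. The median log2 fold change followed coding length, at -0.78 for members, -0.58 for genes above 300 and up to 600 bp, -0.16 for those up to 1200 bp and 0.16 above 1200 bp. It was -0.86 in the 185 tested members with neither overlap nor shared counts. Of 77 members at 100 CPM or more, 36 fell (46.8%) and 11 rose (14.3%), while 31.1% of longer genes of that level fell and 12.1% rose. CopciAB_501712.T0 had 292, 209 and 149 CPM in sclerotia and 3235, 3376 and 2153 CPM in mycelium (-3.45 ± 0.23, edgeR adjusted p = 2.14e-10). CopciAB_468546.T0, with 1 exon, had 15.7, 8.51 and 7.43 CPM, against 180, 239 and 263 CPM (-4.13 ± 0.23, adjusted p = 1.53e-11). CopciAB_421349.T0 had 0.374, 0 and 0 CPM, against 4.17, 8.49 and 4.80 CPM (-5.19 ± 0.75, adjusted p = 6.18e-06, between -8.82 and -4.55 with 1 library of sclerotia left out). CopciAB_502046.T0 fell by 3.98 ± 0.43 (adjusted p = 2.09e-06).

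Of the 48 members that rose in sclerotia, the first 4 by fold are given here. CopciAB_447761.T0 had 49.9, 62.9 and 17.3 CPM in sclerotia, against 0.334, 0.365 and 0.0906 CPM in mycelium (7.58 ± 0.65, edgeR adjusted p = 1.32e-07). CopciAB_439412.T0, with 94 amino acids on scaffold 9 (454332 to 455004), had 287, 198 and 110 CPM, against 1.08, 1.64 and 4.08 CPM (6.74 ± 0.50, adjusted p = 5.99e-08, and 7.47 without control library 3). CopciAB_438392.T0 had 63.8, 30.1 and 21.0 CPM, against 0.334, 0.183 and 1.09 CPM (6.42 ± 0.55, adjusted p = 4.60e-08, and 7.41 without control library 3). Both of these were highest in basidiospores at 0 h, at 5287 ± 1289 and 399 ± 44.2 CPM (SD, n = 3 each). CopciAB_503685.T0, with 50 amino acids, was highest in sclerotia, at 8.41, 8.51 and 13.4 CPM, against 0.167, 0.0913 and 0.181 CPM (6.35 ± 0.58, adjusted p = 4.02e-08).

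**Figure D4:**
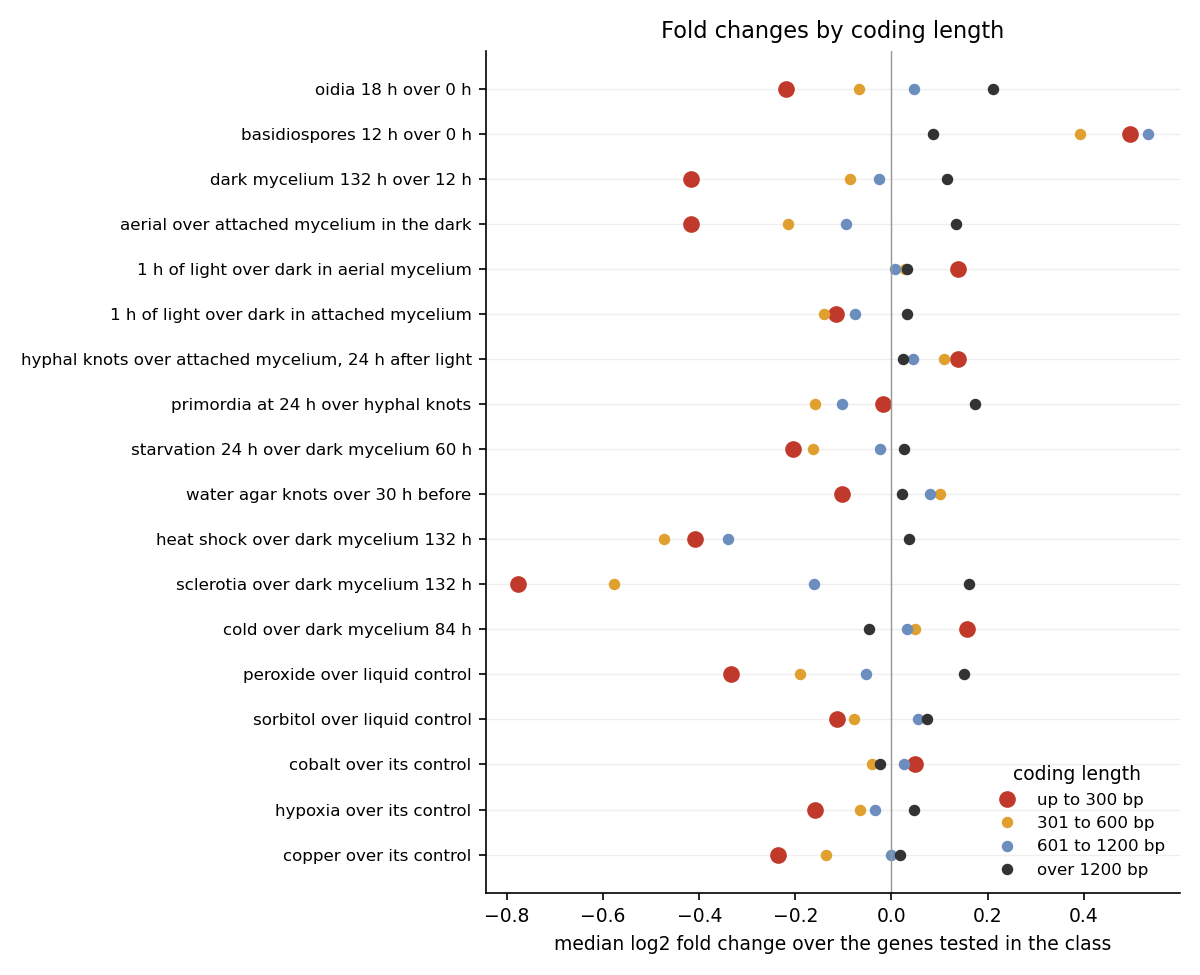
Median log2 fold change (x axis) of the genes tested in 4 classes of coding length, for the 18 comparisons (y axis). Points left of 0 are classes lower in the first-named group. The red points of the very short genes lie farthest left in sclerotia (-0.78), and the medians of the 4 classes rise with coding length in 9 of the 18 comparisons (sclerotia, peroxide, sorbitol, copper, hypoxia, starvation, dark growth, oidia and aerial mycelium), fall with it in 2 (cold and knots over attached mycelium) and follow no such order in 7.

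Cold mainly raised members, and sorbitol moved about as many up as down. After 4 h at 4 °C over dark mycelium of 84 h, 37 members rose and 12 fell of 263 tested, with 15.6% of all genes called (10.4% higher and 5.27% lower). Without cold library 3, 29 were called, and without control library 1, 32. CopciAB_372317.T0 had 1.79, 36.6 and 52.9 CPM in the cold, against 0.796, 0.642 and 1.30 CPM (5.23 ± 0.87, edgeR adjusted p = 0.00160), its lowest value in the shallow cold library 1. CopciAB_559272.T0, with 92 amino acids on scaffold 6 (152586 to 153415), had 4.78, 27.1 and 39.9 CPM, against 1.33, 2.57 and 2.08 CPM (3.77 ± 0.63, adjusted p = 0.000958). CopciAB_502046.T0 had 1293, 537 and 430 CPM, against 62.9, 45.7 and 161 CPM (3.11 ± 0.53, adjusted p = 0.00158, between 2.53 without cold library 1 and 3.85 without control library 3). CopciAB_501278.T0 fell by 2.34 ± 0.72 in the cold (adjusted p = 0.0381), but its adjusted p was 0.0821 without cold library 1, 0.101 without cold library 2, 0.103 without control library 1 and 0.0822 without control library 2. CopciAB_406489.T0 was steadier, with 8.96, 6.26 and 8.35 CPM in the cold and 32.5, 53.6 and 34.3 CPM in controls (-2.32 ± 0.25, adjusted p = 8.32e-06).

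In 10% sorbitol over the liquid control, 33 members rose and 30 fell of 268 tested, with 17.8% of all genes called (10.7% higher and 7.07% lower). CopciAB_432230.T0 had 68.0, 34.0 and 188 CPM in sorbitol, against 1.34, 1.76 and 1.94 CPM (5.87 ± 0.72, adjusted p = 1.30e-05). CopciAB_439412.T0 had 122, 75.3 and 350 CPM, against 2.28, 4.85 and 6.51 CPM (5.36 ± 0.58, adjusted p = 3.34e-06), and CopciAB_438392.T0 rose by 5.30 ± 0.66 (adjusted p = 1.45e-05). Without sorbitol library 3 these values were 4.92, 4.45 and 4.59. CopciAB_559272.T0 had 144, 171 and 261 CPM, against 8.43, 2.98 and 4.57 CPM (5.14 ± 0.61, adjusted p = 9.49e-06). Of those that fell, CopciAB_421349.T0 had 0.973, 1.19 and 1.00 CPM in sorbitol and 12.7, 11.6 and 8.06 CPM in the control (-3.38 ± 0.38, adjusted p = 1.79e-06). CopciAB_351135.T0 fell by 3.31 ± 0.38 (adjusted p = 1.85e-06).

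Peroxide lowered more members than it raised. Over the same liquid control, 33 members rose and 55 fell of 268 tested, or 32.8% called, with 24.4% of all genes called (15.5% higher and 8.95% lower). Of 77 members at 100 CPM or more, 36 fell and 4 rose, with a median log2 fold change of -0.89, and 23.3% of longer genes of that level fell, with a median of -0.52. Of 191 members below it, 19 fell (9.95%) and 29 rose (15.2%), and of longer genes below it 6.26% fell and 16.5% rose. By coding length the medians were -0.33, -0.19, -0.05 and 0.15, from members to genes above 1200 bp. CopciAB_356423.T0 had 146, 300 and 402 CPM in peroxide, its highest group, against 6.46, 6.62 and 9.85 CPM in the control (4.59 ± 0.30, edgeR adjusted p = 1.32e-09). CopciAB_372317.T0 had 8.83, 8.18 and 15.0 CPM, against 0.736, 0.221 and 0.233 CPM (4.00 ± 0.66, adjusted p = 9.33e-05, and 4.88 without control library 1). CopciAB_501278.T0 rose by 3.88 ± 1.01 (adjusted p = 0.00769) and CopciAB_186672.T0 by 3.13 ± 0.25 (adjusted p = 1.81e-08). Of those that fell, CopciAB_396191.T0 had 1.08, 0.0764 and 0.479 CPM, against 2.68, 10.1 and 3.80 CPM (-3.91 ± 0.75, adjusted p = 0.000406, between -5.03 without peroxide library 1 and -3.02 without control library 2). CopciAB_487630.T0 had 388, 267 and 345 CPM in peroxide and 2451, 2662 and 1476 CPM in the control (-3.39 ± 0.52, adjusted p = 8.14e-05).

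Copper over its shared control raised 8 members and lowered 11 of 257 tested, or 7.39% called, with 8.26% of all genes called (5.04% higher and 3.22% lower). Without copper library 1, 12 were called. CopciAB_447761.T0, with 58 amino acids in 4 exons on scaffold 6 (463561 to 464078), had 4978, 801 and 1056 CPM in copper, against 119, 88.7 and 165 CPM (4.28 ± 0.70, edgeR adjusted p = 0.00176). Without copper library 1 the log2 fold change was 2.69, and with only the 2 groups in the fit the adjusted p was 0.0625. In copper, CopciAB_545978.T0 led the lower side, with 0.645, 1.60 and 2.25 CPM, against 8.05, 9.35 and 3.80 CPM (-2.32 ± 0.39, adjusted p = 0.00200, and 0.0926 with only the 2 groups in the fit). The next highest groups of CopciAB_447761.T0 were liquid cultures in Congo red, alkaline and acidic medium and their control, with means of 986, 929, 675 and 622 CPM, and the median over groups was 2.27 CPM. Cobalt over its control raised 10 members and lowered 7 of 248 tested, or 6.85% called, with 5.92% of all genes called (2.93% higher and 2.99% lower), and 11 or 7 were called without cobalt library 2 or 3. CopciAB_471254.T0 had 12.5, 21.5 and 21.9 CPM in cobalt, against 1.24, 4.05 and 1.37 CPM (3.17 ± 0.42, adjusted p = 0.00289, and 3.93 without control library 2). CopciAB_559272.T0 had 140, 184 and 169 CPM, against 20.5, 25.2 and 16.7 CPM (3.09 ± 0.20, adjusted p = 3.36e-05). CopciAB_502046.T0 led the lower side, with 0.622, 0.457 and 0.219 CPM in cobalt and 34.5, 6.98 and 8.19 CPM in the control (-5.17 ± 0.91, adjusted p = 0.0172), but its adjusted p was 0.0503, 0.0606 and 0.0710 without cobalt library 1, 2 or 3, and its log2 fold change was -4.01 without control library 1.

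In hypoxia, 0 members were called higher and 2 lower of 246 tested, or 0.813%, with 1.12% of all genes called (0.585% higher and 0.536% lower). At an unadjusted edgeR p under 0.05, 14 members were higher and 23 lower, and DESeq2 called 1 higher and 8 lower. CopciAB_479570.T0 was the 1 named member, with 3.91, 12.7 and 8.35 CPM in hypoxia, against 33.6, 50.04 and 58.7 CPM (-2.32 ± 0.40, edgeR adjusted p = 0.0286). Its adjusted p was 0.0896 without hypoxia library 3, 0.105 without control library 2 and 0.107 without control library 3. With libraries left out, 0 (without hypoxia library 3, control library 2 or control library 3), 1 (without hypoxia library 2) or 7 (without control library 1) members were called.

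**Figure D5:**
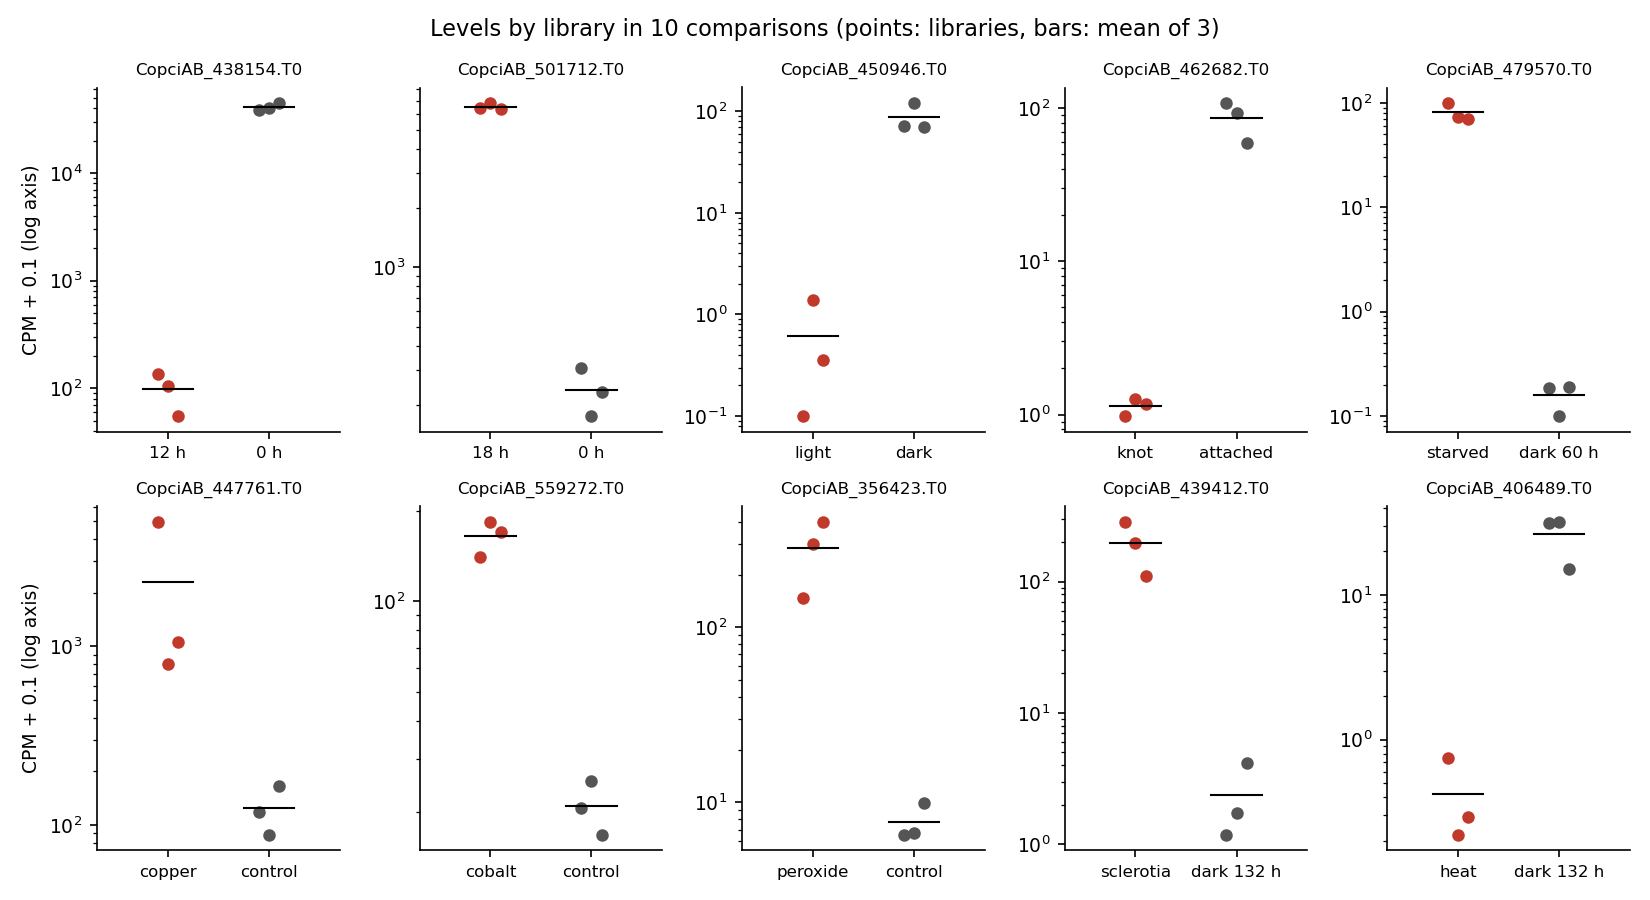
Levels of 10 members by library, each in 1 comparison, in CPM + 0.1 on log axes that differ between panels. Red points are the first-named group and grey points its reference, with a bar at the mean of 3. CopciAB_438154.T0 has 135 CPM or less in basidiospores at 12 h, against 38693 CPM or more at 0 h, and CopciAB_447761.T0 in copper has 1 library (4978 CPM) well above the other two.

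Nearly every testable member responded somewhere, as did nearly every testable longer gene. At least 1 of the 18 comparisons called 297 of the 307 members that passed the filter in some comparison (96.7%, against 95.9% of longer genes), with a median of 4 calls in both classes, while 40 members were never testable. Members called in 10 or more comparisons numbered 14 of 307, against 363 of 10563 tested longer genes. CopciAB_394838.T0 and CopciAB_447761.T0 led these members with 12 calls each. CopciAB_394838.T0, with 67 amino acids, averaged 7488 and 7315 CPM in basidiospores at 0 and 4 h and 2.43 CPM in cut mycelium. CopciAB_351135.T0, CopciAB_463797.T0, CopciAB_466714.T0, CopciAB_468195.T0 and CopciAB_475934.T0 had 11 calls. CopciAB_475934.T0, with 85 amino acids, averaged 4670 CPM in sorbitol, 3386 CPM in ungerminated oidia and 1.24 CPM on water agar 30 h before knots. These members were chosen by their number of calls after the values were seen.

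In 12 places 2 members were neighbours among the counted genes, and the median Spearman correlation of their group means was 0.08, against 0.18 over 12007 neighbouring pairs of detected genes. CopciAB_501439.T0 and CopciAB_432230.T0, with 74 and 66 amino acids, lie within scaffold 1 from 759887 to 760824 on the same strand, and their correlation over 67 groups was 0.68. Both were highest in basidiospores at 0 h. CopciAB_501439.T0 fell by 8.30 ± 0.51 and CopciAB_432230.T0 by 5.37 ± 0.51 on the log2 scale during 12 h of germination (edgeR adjusted p = 1.21e-11 and 1.76e-08), and they rose by 6.24 ± 0.42 and 3.89 ± 0.49 after heat shock (adjusted p = 7.71e-10 and 5.81e-06). CopciAB_473763.T0 and CopciAB_411390.T0 on scaffold 9 had a correlation of 0.71, on opposite strands. The correlations are over group means that share time courses, and they are given without a test.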

How the data were processed

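QuantSeq 3′ libraries were read from 1 end with 75 bp, per the labels' protocols. What the authors deposited is a gene table of raw expected counts, with their gene models. STAR 2.6.1a and featureCounts were used, per the submitters' processing notes, and the annotation was exported with rtracklayer 1.52.0, per the file headers. How strand and multiply mapped reads were handled is not given in the sources used here. In the table, 19.9% of nonzero counts were not whole (tolerance 0). The annotation holds 14750 models on 20 scaffolds, of which 1133 isoforms were not counted, and a stop codon was never part of a coding sequence.

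Counts were rounded and tested with edgeR 4.0.16 in R 4.3.3: TMM scaling, filterByExpr with a minimum count of 10, robust quasi-likelihood test and Benjamini-Hochberg adjustment over all genes tested. The 18 comparisons came from 11 fits, each holding the groups of 1 control or course. Calls needed an adjusted p under 0.05 and at least a fold of 2. Folds use TMM scaling and CPM use plain library totals, so the ratio of CPM can differ from a fold. A gene at 0 in a group got a floor of 3 counts over that group, which covers counting error only, since reads without molecular identifiers are not independent. Detection meant 1 CPM as a group mean. The fit was tested on simulated data. In aerial against attached mycelium in the dark, libraries of the same replicate number deviated together (correlations of 0.13, 0.32 and 0.30). These numbers may pair the samples, which the labels do not say. The values printed for that comparison come from the fit without a replicate block, and a fit with that block called 60 members in place of 61.

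Members, lists and comparisons were chosen with earlier results of these data known. Named members of a comparison were those called, with groups that did not overlap, 5 CPM or more in the higher group and counts whole in at least 50% of libraries, the first 1 to 4 by fold in each direction. Named over all groups were the 10 most abundant and the 10 of highest tau among those reaching 50 CPM, and the 3 nearest to the most abundant.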

Additional observations from a re-analysis of the deposited data

How the results depend on the processing

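Over the 18 comparisons, DESeq2's size factors in edgeR, no filter on low counts and the replicate block kept every count of called members within 1.5 times. DESeq2 gave 9 members in hypoxia and 33 in copper, and fitting only the 2 groups compared gave 1 in copper. No named result reversed, and 21 of 137 lost the call under at least 1 alternative; the cause was not tested. With 1 library left out, counts ran from 23 to 38 for light in aerial mycelium, 29 to 52 in cold, 7 to 19 in cobalt, 0 to 7 in hypoxia and 12 to 26 in copper.

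The class summaries moved with their definition. Under TMM library sizes, 92.2% of members were detected and their share of counts was 4.21%. A limit of 240 bp gave 92.4%, 2.50% and a median tau of 0.503. A limit of 360 bp gave a median level of 14.8 CPM, a share of 12.2% and a tau of 0.453. Without members of uncertain counts, these were 94.1% detected, a share of 2.18% and a tau of 0.501. Without libraries under 5000000 counts, 88.8% were detected and tau was 0.440. Leaving out 1 replicate of every group gave 90.8% to 93.1% detected, shares of 4.33% to 4.39% and tau of 0.467 to 0.474.

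Apart from aerial against attached mycelium in the dark, correlations by replicate number ran from -0.37 to 0.29. Libraries correlated best with their own number in 1 of these other 17 comparisons. With the replicate block, 156 members were called in oidia, 169 in basidiospores, 65 in dark growth, 37 and 46 for light in aerial and attached mycelium, 63 in knots, 94 in primordia, 89 in starvation, 24 in water agar knots, 168 in heat shock, 156 in sclerotia, 42 in cold, 85 in peroxide, 64 in sorbitol, 16 in cobalt, 2 in hypoxia and 16 in copper. Depth limits members below 1 CPM most, and 40 could not be tested at all.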
